A study of Mus musculus with 6 samples.

Results

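The AP-1 transcription factor genes Fos, Fosb, Fosl1, Fosl2, Jun, Junb and Jund, the small Maf gene Maff and the immediate early genes Egr1 and Ier3 were measured in cultured mouse aortic endothelial cells with and without an interfering PPARG. Members were chosen by gene symbol. The 10 genes were read by 14 of the 45101 probe sets of the array, and 9 of the 10 were bright enough to be tested. Primary aortic cells came from C57 mice of unstated age. The transgenic group carried a dominant negative human PPARG (V290M) driven by the endothelial CDH5 (vascular endothelial cadherin) promoter, and the non-transgenic group lacked it. Neither group received a treatment. In each group 10 mice gave 5 cultures of 2 pooled mice, and RNA of 3 separate cultures per group was hybridised to Affymetrix mouse genome arrays after amplification from about 50 ng, so n = 3 cultures per group. Values are the deposited MAS5 signals as log2(signal + 16), a scale that understates the change of dim genes. The number of arrays limits their precision. Differences are transgenic minus non-transgenic with limma's moderated standard error (SE).

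AP-1 is a dimer of basic leucine zipper proteins. Jun proteins pair with each other or with Fos proteins and bind short DNA elements first found as phorbol ester response elements, while Fos proteins need a partner. Fos, Jun, Egr1 and Ier3 are classic immediate early genes, switched on within minutes of serum, growth factors, shear or stress without new protein synthesis. For Fos and Egr1 this runs through MAP kinases and the serum response factor. Fosl1 and Fosl2 (Fra-1 and Fra-2) follow later and lack the strong activation domain of Fos. PPARG bound by ligand is known to dampen AP-1 activity in inflammatory cells.

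Of the 6 arrays, transgenic replicate 3 lay closer to the opposite group than to its own: over the 11208 tested genes its rank correlation averaged 0.907 with transgenic replicates 1 and 2 but 0.972 with the non-transgenic cultures. The difference of each of the 10 genes is therefore given with and without it. With all 6 arrays 0 of 11208 genes passed limma's threshold, an adjusted p (Benjamini-Hochberg) of 0.05, while 1288 (11.5%) had an unadjusted p under 0.05. Without that array, which was singled out with its values known, 3 cultures are compared with 2, and limma called 1649 genes. Gapdh control probe sets at the 3' and 5' ends gave a ratio of 1.33 ± 0.12 (SD, n = 3) for transgenic and 1.59 ± 0.11 (SD, n = 3) for non-transgenic RNA (two-sided exact permutation p = 0.1, which is the lower bound for this design). The same ratio of beta-actin overlapped between the groups, at 1.78 ± 0.41 and 2.00 ± 0.17 (SD, n = 3 each, exact permutation p = 0.5), transgenic replicate 3 having the highest at 2.21. The median signal of the probe sets that are not controls was 219.9 to 222.9 in the non-transgenic and 173 to 186.1 in the transgenic cultures. With quantile normalization, which gives all arrays 1 distribution, Fos differed by -0.17 and Jund by -0.34, against -0.18 and -0.34 without it. Cell identity was weak. Of 20 endothelial markers 7 lay above the level filter, a log2 value of 7.717, and the defining genes Cdh5, Pecam1 and Vwf lay under it in every culture. All 15 fibroblast markers lay above it. The level of the transgene itself was not tested.

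Fosl1, Jun, Maff and Ier3 lay higher in transgenic replicates 1 and 2 than in any non-transgenic culture, by a fitted 15.95-fold for Fosl1 and between 2.86-fold and 2.94-fold for the other 3 when transgenic replicate 3 was left out. Fos, Egr1, Fosl2 and Jund, all bright in every culture, differed by at most 1.26-fold with all 6 cultures and lay slightly lower in the transgenic mean. Junb overlapped between the groups, and Fosb was dim. With all 6 cultures 0 of the 9 tested genes passed limma's threshold (0% of all genes did), the smallest adjusted p among them being 0.428. At an unadjusted p under 0.05 there were 5 of the 9, Fosl1, Jun, Maff and Ier3 higher and Jund lower, against 11.5% of all genes. Without transgenic replicate 3, 4 of the 9 passed, all higher, against 14.7% of all genes in either direction, 6.88% higher and 7.83% lower. Over every probe set, 6 of the 14 passed without that array, all higher and all of these 4 genes, against 7.27% of all probe sets in either direction and 3.11% higher. With all arrays 0 of the 14 did.

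The promoters of Jun, Maff and Ier3 are shown because these 3 genes lay higher in the same 2 cultures. They run from 250 bases before to 50 after a start site in RefSeq's annotation of GRCm38.p6, 5′ to 3′ on the strand of the gene, with capitals marking motif matches. For Maff, whose table entries give 3 start sites, the middle and the last are shown, the first having no match to any motif searched.
Jun (chr4:95052173-95052472, minus strand): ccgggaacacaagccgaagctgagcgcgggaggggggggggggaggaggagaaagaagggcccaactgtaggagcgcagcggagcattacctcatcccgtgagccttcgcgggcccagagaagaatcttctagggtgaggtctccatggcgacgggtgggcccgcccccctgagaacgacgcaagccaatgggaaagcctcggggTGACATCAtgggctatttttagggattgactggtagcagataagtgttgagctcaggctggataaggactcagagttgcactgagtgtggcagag
Maff, middle start site (chr15:79347270-79347569, plus strand): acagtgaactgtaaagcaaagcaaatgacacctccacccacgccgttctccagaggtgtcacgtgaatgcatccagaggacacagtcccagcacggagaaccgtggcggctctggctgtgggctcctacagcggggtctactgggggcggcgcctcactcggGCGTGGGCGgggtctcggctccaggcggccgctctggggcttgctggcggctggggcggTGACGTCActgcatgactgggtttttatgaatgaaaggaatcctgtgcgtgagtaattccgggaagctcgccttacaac
Maff, last start site (chr15:79348152-79348451, plus strand): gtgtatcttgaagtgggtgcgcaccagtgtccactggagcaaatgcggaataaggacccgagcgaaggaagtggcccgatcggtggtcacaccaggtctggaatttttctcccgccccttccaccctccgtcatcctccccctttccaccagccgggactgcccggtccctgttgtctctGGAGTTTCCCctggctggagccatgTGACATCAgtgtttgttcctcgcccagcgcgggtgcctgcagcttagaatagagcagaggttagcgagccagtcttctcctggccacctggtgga
Ier3 (chr17:35821463-35821762, plus strand): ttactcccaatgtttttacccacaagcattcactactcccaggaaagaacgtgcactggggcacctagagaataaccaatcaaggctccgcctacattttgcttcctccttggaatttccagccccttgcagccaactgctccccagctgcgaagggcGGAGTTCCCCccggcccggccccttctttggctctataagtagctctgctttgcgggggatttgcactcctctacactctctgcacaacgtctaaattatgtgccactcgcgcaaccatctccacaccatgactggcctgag

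Promoters were read for 8 of the 10 genes, without Egr1 and Fosl1. The search of the 10 genes skipped all entries of a chromosome by rule, so a gene not read need not lack an entry. The matches below do not cover Egr1 and Fosl1. Motifs were searched on both strands: TGACTCA (the consensus element of AP-1), TGACATCA (its variant), TGACGTCA (the cyclic AMP element), GCGTGGGCG (an EGR site), CCGGAAGT (an ETS site), the CArG box (bound by serum response factor) and the NF-kappaB site. Jun and the last Maff start site both held TGACATCA from base -45 to base -38 before the start, a motif in 3.62% of 32851 promoter entries of the same length. The middle Maff entry held TGACGTCA at -29 to -22 (1.79% of entries) and GCGTGGGCG at -88 to -80 (0.612%). The capitals in Ier3 mark an NF-kappaB match on the opposite strand at -92 to -83, and the last Maff entry has another at -70 to -61. That motif stood in 8.46% of entries and also in the promoters of Fos, Fosb and Fosl2, so it was not limited to the genes that lay higher. None of the 8 genes matched TGACTCA (5.2% of entries), the CArG box (1.63%) or CCGGAAGT (3.89%) within this window. The entries of Junb and Jund matched none of the 7 motifs. These matches are descriptions of the letters and do not show binding.

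Fosl1, the Fos relative that builds up in dividing and migrating cells, had the largest difference of the 10 genes. Its brighter probe set (1417487_at) had non-transgenic signals of 612.1, 192.1 and 204.5, against 3806, 6243.6 and 308.9 in transgenic replicates 1, 2 and 3. On the log2 scale these were 9.29, 7.70 and 7.78 against 11.90, 12.61 and 8.34. Transgenic replicates 1 and 2 lay far above all other cultures, while replicate 3 lay inside the non-transgenic range, below non-transgenic replicate 1. The difference was 2.69 ± 1.04 (SE, limma adjusted p = 0.428) with all cultures and 4.0 ± 0.49 (limma adjusted p = 0.00488) without transgenic replicate 3. The dimmer probe set (1417488_at), under the level filter on average, read 5.00, 4.62 and 4.86 against 6.46, 9.54 and 4.58, so the same 2 cultures were high on it. It differed by 2.03 ± 1.03 (limma adjusted p = 0.415 over every probe set) and by 3.17 ± 0.77 without transgenic replicate 3 (limma adjusted p = 0.0446 over every probe set).

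Jun, the main activating partner in AP-1 dimers, was read by 2 probe sets. On the brighter (1448694_at) the non-transgenic cultures stood at 11.60, 11.18 and 10.94, the transgenic ones at 12.32, 13.27 and 11.46. The highest value was that of transgenic replicate 2, and only replicate 3 fell within the non-transgenic range. Its difference was 1.11 ± 0.43 (limma adjusted p = 0.428), and 1.55 ± 0.31 without transgenic replicate 3 (limma adjusted p = 0.0173). Without transgenic replicate 2 the difference was 0.65. The dimmer probe set (1417409_at) was at 10.10, 9.75 and 9.46 against 10.67, 11.04 and 9.45, again with replicates 1 and 2 above all others and replicate 3 level with the lowest. It differed by 0.62 ± 0.41 (limma adjusted p = 0.523 over every probe set), and by 1.08 ± 0.26 without transgenic replicate 3 (limma adjusted p = 0.0424).

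Junb, which can oppose Jun at its targets, stood at 10.35, 10.15 and 9.32 against 10.56, 9.49 and 10.38 (1415899_at). The groups overlapped throughout, with the low values in non-transgenic replicate 3 and transgenic replicate 2. Unlike for Jun, transgenic replicate 2 was near the bottom. The difference of 0.20 ± 0.39 did not exceed the variation among cultures (limma adjusted p = 0.845), and was 0.08 ± 0.41 without transgenic replicate 3 (limma adjusted p = 0.914). It turned to -0.11 without non-transgenic replicate 3 and to -0.01 without transgenic replicate 1.

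Jund, the Jun gene with the steadiest expression in most cells, was at 14.22, 14.06 and 14.09 against 13.54, 13.97 and 13.85 on its brighter probe set (1449117_at). No transgenic culture reached the non-transgenic range, replicate 1 being lowest. The difference was -0.34 ± 0.14 (limma adjusted p = 0.428), -0.37 ± 0.15 without transgenic replicate 3 (limma adjusted p = 0.123) and -0.21 without transgenic replicate 1. The dim second probe set (1440265_at) overlapped between groups and differed by 0.05 ± 0.32, so the 2 probe sets of Jund had opposite signs. With the mean of both, the difference was -0.14.

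**Figure D1:**
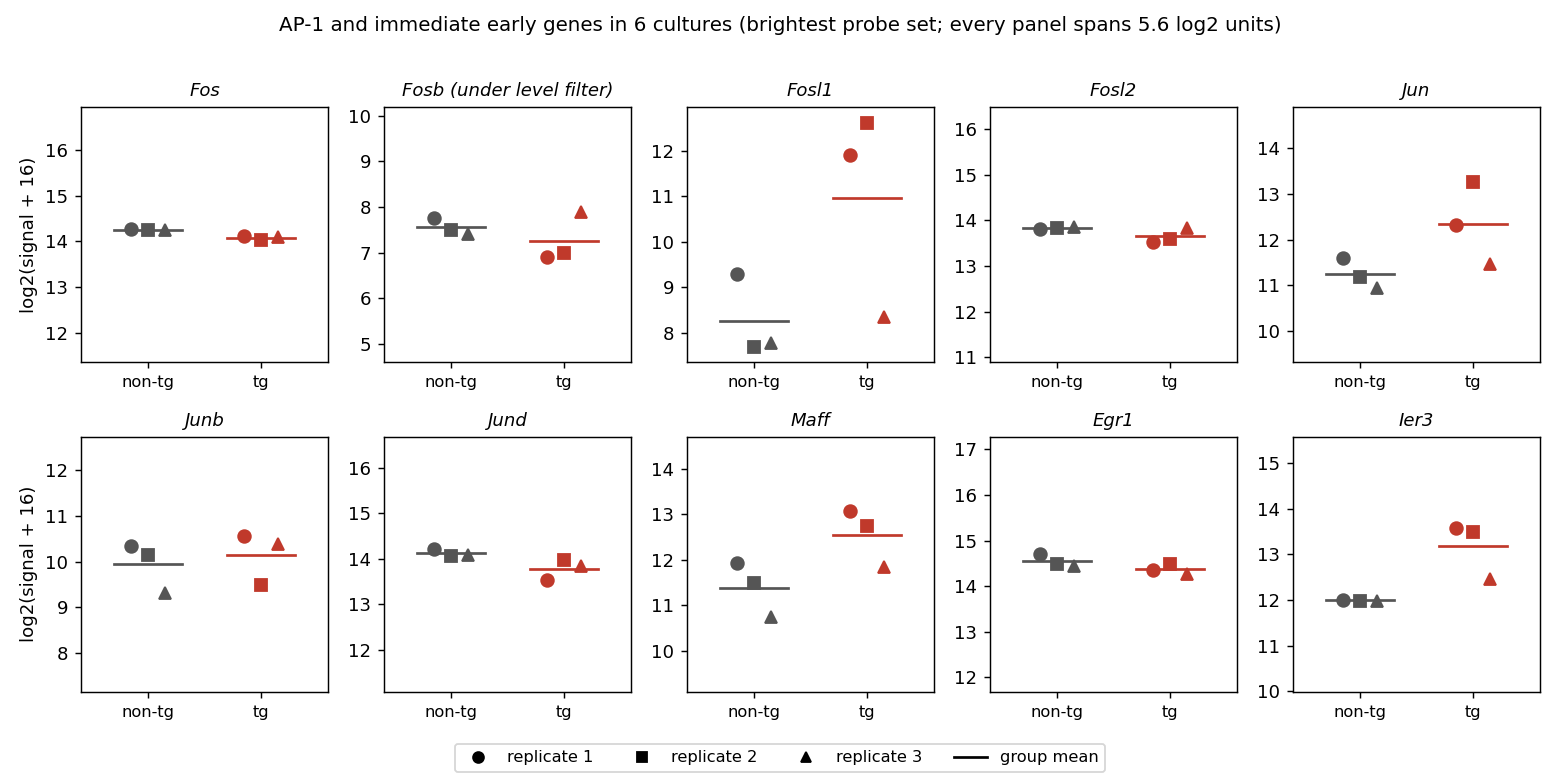
Each panel plots log2(signal + 16) of the brightest probe set of 1 gene, with grey points for the 3 non-transgenic (non-tg) and red points for the 3 transgenic (tg) cultures, shapes for replicate numbers and lines for group means; every panel spans the same log2 range. In Fosl1, Jun, Maff and Ier3 transgenic replicates 1 and 2 sit above all non-transgenic points, while Fos, Fosl2, Jund and Egr1 hardly spread.

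Fos, the prototype immediate early gene, had non-transgenic values of 14.27, 14.25 and 14.24 and transgenic values of 14.12, 14.02 and 14.09 (1423100_at), or signals of 19714.2, 19404.6 and 19380.2 against 17775, 16605.5 and 17389.4. The non-transgenic values were almost identical, and all 3 transgenic cultures lay below them without overlap. The step was small, at -0.18 ± 0.09 (limma adjusted p = 0.467), a 1.13-fold difference, and -0.18 ± 0.10 without transgenic replicate 3 (limma adjusted p = 0.231). Unlike in Fosl1 and Jun, replicate 3 lay with the other transgenic cultures.

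Fosb, a close relative of Fos that is often induced together with it, lay under the level filter. It was at 7.75, 7.50 and 7.40 against 6.90, 6.98 and 7.88 (1422134_at). Transgenic replicates 1 and 2 were the lowest and transgenic replicate 3 the highest of the 6. In a fit without the filter the difference was -0.30 ± 0.38 (limma adjusted p = 0.80), and -0.61 ± 0.33 without transgenic replicate 3 (limma adjusted p = 0.317).

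Fosl2 is the other Fra gene. Its brighter probe set (1437247_at) was at 13.80, 13.84 and 13.85 against 13.52, 13.59 and 13.84, with transgenic replicates 1 and 2 slightly below and replicate 3 level with the non-transgenic cultures. The difference was -0.18 ± 0.12 (limma adjusted p = 0.554), and -0.27 ± 0.11 without transgenic replicate 3 (limma adjusted p = 0.117). The dimmer probe set (1422931_at) differed by -0.07 ± 0.31 with overlapping groups.

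**Figure D2:**
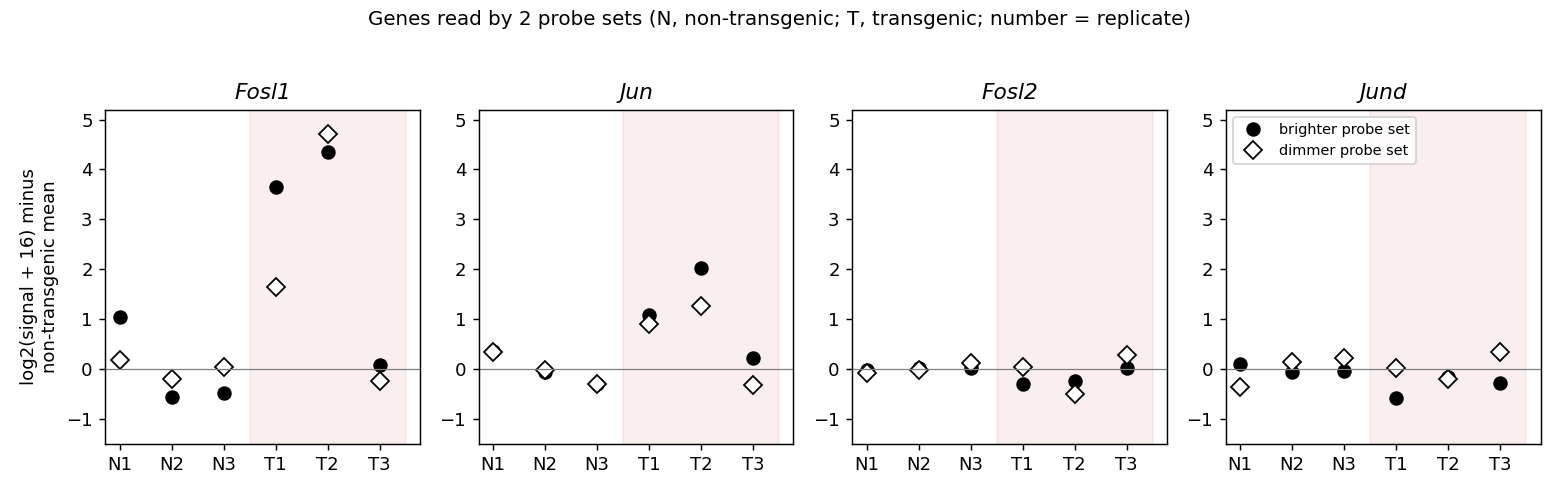
For the 4 genes read by 2 probe sets, points give log2(signal + 16) in each culture (N, non-transgenic; T, transgenic) minus the non-transgenic mean of that probe set; filled circles are the brighter and open diamonds the dimmer probe set. Both probe sets of Fosl1 and of Jun are high in T1 and T2 and near 0 in T3, while those of Fosl2 and Jund stay within 1 log2 unit of 0.

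Maff, a small Maf protein with no activation domain that pairs with other leucine zipper proteins, was at 11.92, 11.50 and 10.74 against 13.06, 12.74 and 11.84 (1418936_at). Transgenic replicates 1 and 2 were above every non-transgenic culture, and replicate 3 was just under non-transgenic replicate 1. The difference was 1.16 ± 0.39 (limma adjusted p = 0.428), and 1.51 ± 0.32 without transgenic replicate 3 (limma adjusted p = 0.0213). Without non-transgenic replicate 3, the lowest culture, it was 0.84.

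Ier3, an early response gene whose product affects cell survival and which is not a leucine zipper factor, was the gene of the 10 with the smallest unadjusted p (0.00352). Its non-transgenic values were 12.01, 11.98 and 11.99 and its transgenic values 13.59, 13.49 and 12.46 (1419647_a_at). All 3 transgenic cultures lay above all non-transgenic ones, replicate 3 by the smallest step. In signal the steady non-transgenic cultures read 4100.3, 4020.6 and 4060.3, against 12299.1, 11454.6 and 5630. The difference was 1.19 ± 0.29 (limma adjusted p = 0.428), and 1.54 ± 0.14 without transgenic replicate 3 (limma adjusted p = 0.00206).

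Egr1, a zinc finger factor induced alongside Fos, was at 14.70, 14.48 and 14.45 against 14.35, 14.49 and 14.26 (1417065_at). The groups overlapped by 1 culture, transgenic replicate 2. The difference was -0.18 ± 0.11 (limma adjusted p = 0.531), and -0.12 ± 0.11 without transgenic replicate 3 (limma adjusted p = 0.489).

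Among the 9 tested genes the groups did not overlap in 3, with Ier3 higher and Fos and Jund lower. Over all genes tested the groups did not overlap in 16.1%, 9.39% higher and 6.72% lower. A difference of 1 or more was found for Fosl1, Ier3, Maff and Jun, all higher, against 5.96% of all genes in either direction and 3.16% higher. The median difference over the 9 was 0.20 beside -0.02 over all genes tested, and 0.08 beside -0.06 without transgenic replicate 3.

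**Figure D3:**
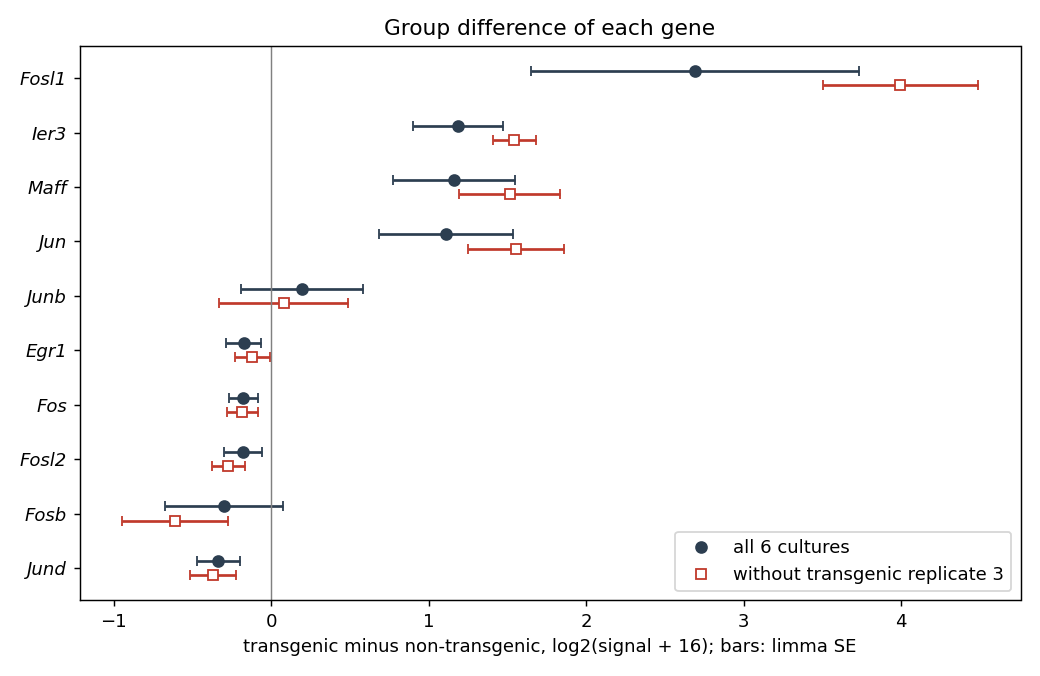
Points give the transgenic minus non-transgenic difference of each gene in log2(signal + 16), with limma's SE as bars, for all 6 cultures (filled circles) and without transgenic replicate 3 (open squares). Fosl1 moves from 2.69 to 4.0 and the other higher genes Ier3, Maff and Jun reach 1.54, 1.51 and 1.55, while Egr1, Fos, Fosl2 and Jund stay between -0.37 and -0.12.

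Markers of cell types were summed in the same cultures, and only the leukocyte and macrophage sum set transgenic replicates 1 and 2 apart from all others. The summed signal of 15 leukocyte and macrophage markers was 11592 and 22240 in transgenic replicates 1 and 2, where Fosl1 and Jun were high, and 4853 in replicate 3, against 3279 to 4934 in the non-transgenic cultures. Of these markers 5, 10 and 4 lay above the level filter in transgenic replicates 1, 2 and 3 and 4 or 5 in each non-transgenic culture. Cd53, a leukocyte membrane protein, was at 12.65 and 13.29 in transgenic replicates 1 and 2 and at most 10.41 elsewhere. Csf1r, a receptor of macrophages and the listed marker with the smallest p, was at 11.03, 10.49 and 10.59 in the transgenic cultures, replicate 3 included, and at 8.94, 9.06 and 8.61 in the others. Transgenic replicate 2 had the highest Lyz2, C1qb, Ctss and Laptm5 of all cultures (12.54, 10.16, 9.82 and 9.22). Transgenic replicate 1 was not high on these, at 10.37, 6.14, 6.50 and 6.22. The highest non-transgenic values were 10.21, 8.83, 7.20 and 7.19. Cd14, also on the list, went the other way. It was lowest in transgenic replicate 2, at 8.90 against 9.81 to 10.47 in the other cultures. The defining markers Ptprc and Adgre1 lay under the filter in all 6 cultures. The 8 adipocyte markers summed to 41364 to 83178 in the non-transgenic and 21843 to 38426 in the transgenic cultures, and the 15 fibroblast markers to 209679 to 233852 and 197908 to 221091. Endothelial markers summed to 13688 to 18197 and 14346 to 20008, and 10 smooth muscle markers to 24280 to 40106 and 27402 to 37117. The part of these markers and of the Gapdh ratio in the differences of the AP-1 genes was not tested, and in bulk cultures a change in the share of a cell type and in RNA per cell cannot be told apart.

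The other genes of the pathway gave no uniform picture. With all 6 cultures 0 genes of any list passed limma's threshold, 0% of all genes having done so. Of the other AP-1, ATF, BATF and MAF leucine zipper genes 9 were tested, with a median difference of -0.25, and of -0.35 without transgenic replicate 3. Maf, a large Maf factor, had the smallest p, at 14.30, 14.27 and 14.36 against 13.53, 13.22 and 14.12. All 3 transgenic cultures lay below every non-transgenic one, opposite to Maff, with a difference of -0.69 ± 0.21 (limma adjusted p = 0.428) and of -0.94 ± 0.12 without transgenic replicate 3 (limma adjusted p = 0.00577). The cyclic AMP response factor Creb1 differed by -0.82 ± 0.32 (limma adjusted p = 0.428) and Atf7, a Jun partner, by -0.66 ± 0.29 (limma adjusted p = 0.437). Without transgenic replicate 3, Creb1 differed by -0.79 ± 0.34 (limma adjusted p = 0.153) and Atf7 by -0.94 ± 0.22 (limma adjusted p = 0.0281). Maf and Atf7 were then the 2 of the 9 that passed, both lower, against 7.83% of all genes lower and 14.7% in either direction. Atf3, a stress-induced partner of Jun named after its values were seen, was at 8.68, 8.15 and 8.55 against 8.21, 8.29 and 8.48 and so was not high where Jun was.

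Of 36 other immediate early genes tested, 16 lay higher and 20 lower, with a median of -0.03, and of 0.02 without transgenic replicate 3. The corepressors of EGR factors went opposite ways. Nab2 was at 10.87, 10.93 and 10.47 against 11.62, 12.06 and 11.34, and Nab1 at 11.31, 11.64 and 11.11 against 10.64, 10.32 and 10.64. Neither gene overlapped between groups, replicate 3 included, and the differences were 0.92 ± 0.25 and -0.82 ± 0.22 (limma adjusted p = 0.428 each). Without transgenic replicate 3 they were 1.08 ± 0.23 and -0.87 ± 0.23 (limma adjusted p = 0.022 and 0.0417). Gem, a small GTPase, was at 10.58, 11.28 and 11.73 against 8.44, 7.96 and 10.77, a difference of -2.14 ± 0.70 (limma adjusted p = 0.428) that was -3.0 ± 0.36 without transgenic replicate 3 (limma adjusted p = 0.00449). In that comparison 7 of the 36 passed higher and 4 lower, against 6.88% and 7.83% of all genes. Among the higher, named after its values were seen, was Egr2, a relative of Egr1. It stood at 11.51, 11.56 and 10.68 against 13.68, 14.08 and 10.96, with transgenic replicates 1 and 2 far above the other 4 cultures, while Egr1 was not high there. Its difference was 1.66 ± 0.74 (limma adjusted p = 0.439), and 2.63 ± 0.28 without transgenic replicate 3 (limma adjusted p = 0.00374).

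Upstream genes, encoding serum response factor, its partners and MAP kinases, lay higher in 11 and lower in 10 of 21 tested, from -0.50 to 0.90, with a median of 0.04 and of -0.11 without transgenic replicate 3. The groups did not overlap in 5 of the 21, all higher, against 9.39% of all genes. Mapk11, a p38 kinase, differed by 0.90 ± 0.27 (limma adjusted p = 0.428), and all 3 transgenic cultures lay above the others at 10.61, 10.14 and 10.01 against 9.59, 9.36 and 9.12. Elk3, a serum response factor partner, differed by 0.57 ± 0.22 (limma adjusted p = 0.428) and the ERK kinase Map2k1 by 0.29 ± 0.14 (limma adjusted p = 0.451). Without transgenic replicate 3, 2 of the 21 passed, both higher, against 6.88% of all genes higher. These were Mapk11 at 1.02 ± 0.26 (limma adjusted p = 0.0404) and Elk3 at 0.78 ± 0.17 (limma adjusted p = 0.0235), while Map2k1 was at 0.41 ± 0.12 (limma adjusted p = 0.0558).

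Genes known to carry AP-1 sites lay higher in 14 of 17 tested, against 5320 of all 11208 genes tested. Their median was 0.70 beside -0.02 for all genes tested, and 0.82 beside -0.06 without transgenic replicate 3. The list was chosen with earlier results of these data known, so these values are descriptions and no independent test. The chemokine Ccl2 was at 11.96, 13.01 and 12.03 against 13.98, 14.60 and 12.84, a difference of 1.47 ± 0.46 (limma adjusted p = 0.428). Timp1, an inhibitor of matrix proteases, was at 14.52, 14.51 and 14.70 against 15.33, 15.33 and 14.67, with a difference of 0.53 ± 0.18 (limma adjusted p = 0.428). The matrix proteoglycan Dcn, also on the fibroblast list, went the other way at 14.15, 14.57 and 14.71 against 13.16, 11.79 and 14.18, a difference of -1.44 ± 0.52 (limma adjusted p = 0.428). In each of these 3 genes transgenic replicates 1 and 2 lay beyond the non-transgenic range and replicate 3 inside it. Without replicate 3 they differed by 1.95 ± 0.33, 0.75 ± 0.09 and -2.01 ± 0.36 (limma adjusted p = 0.0106, 0.00499 and 0.0127). In that comparison 9 of the 17 passed higher and 1 lower, against 6.88% and 7.83% of all genes.

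**Figure D4:**
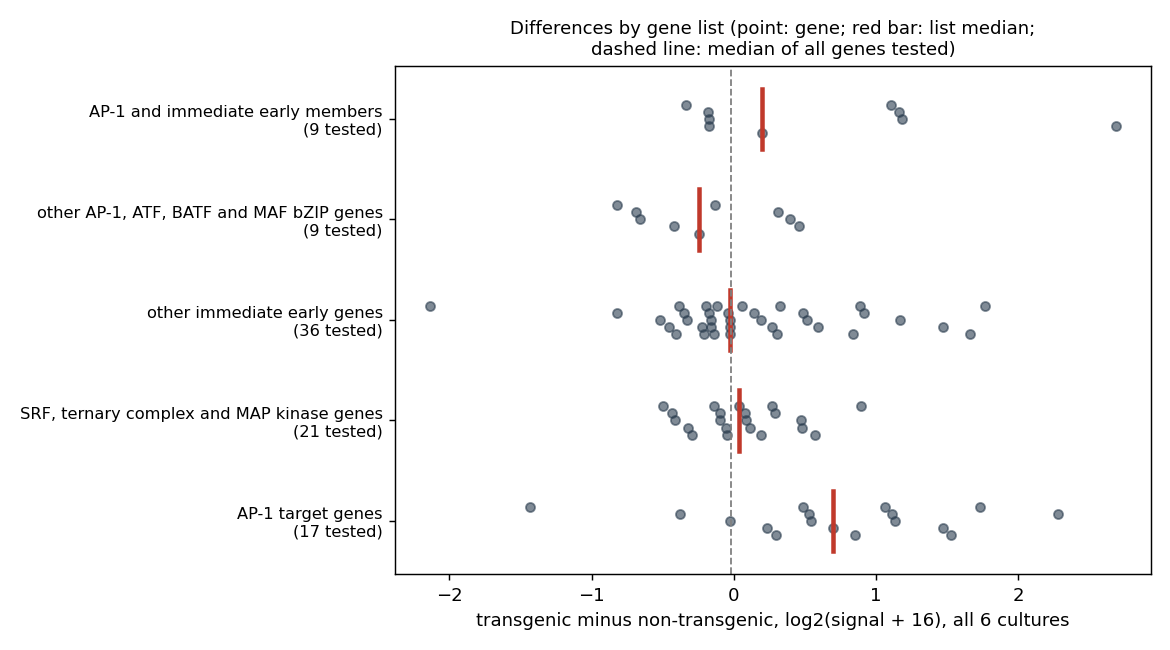
Each point is the transgenic minus non-transgenic difference of 1 tested gene in log2(signal + 16) over all 6 cultures, by gene list, with red bars for list medians and a dashed line for the median of all genes tested (-0.02). The AP-1 target genes have their median at 0.70 and the other leucine zipper genes at -0.25, and the 4 higher members stand clear of the other 5.

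The tested genes outside the 10 whose pattern over the 6 arrays was most like that of Fosl1, by Pearson's r, were Nudt1 (r = 0.999), Tk1 (r = 0.999) and Prc1 (r = 0.998). Tk1 was at 8.71, 7.11 and 7.0 against 11.10, 11.81 and 7.70. These likenesses rest on transgenic replicates 1 and 2, which lie apart from the other 4 arrays, and 7.88% of tested genes reached an r over 0.9 with Fosl1. For Fos the most alike were Ino80 (r = 0.994), Ehbp1 (r = 0.972) and Zfat (r = 0.971), with 0.777% of genes over 0.9. For Egr1 they were 9330159F19Rik (r = 0.993), Polr1a (r = 0.976) and Hspd1 (r = 0.956), with 0.152% over 0.9. The values are descriptions over 6 arrays, and with so many genes compared they carry no test.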

How the data were processed

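For each probe set the authors deposited a linear MAS5 intensity, per the submitters' processing notes, for 3 non-transgenic and 3 transgenic cultures. The MAS5 version and genome build are not given in the sources used here, and scaling was kept. Groups came from the sample titles. Gene names came from the array annotation, with symbols updated by gene identifier through RefSeq's mouse table (34741 probe sets). Values were log2(intensity + 16). Each of 18193 genes was read by its brightest probe set, and the 11208 with a mean at or above the probe set median, 7.717 (a signal of 194), were tested. limma 3.58.1 in R 4.3.3 compared the groups (lmFit, eBayes with trend, two-sided) and Benjamini-Hochberg adjustment at 0.05 over all genes tested, and again over each of 45037 probe sets. The fit was checked on simulated data. The members and lists were chosen with earlier results of these data known. Genes named were the 10 members, 3 genes with the smallest p per list other than the cell type lists, cell type markers beside the results, and for Fosl1, Fos and Egr1 the 3 most alike in pattern. Replicate numbers were not used to pair the cultures in the main fit. Alternatives were other pseudocounts, filters, scaling, variance priors, array weights, probe set summaries, a replicate block and each array left out. The counts by list and by probe set without transgenic replicate 3 were added after seeing the data.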

Additional observations from a re-analysis of the deposited data

How the results depend on the processing

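With all 6 cultures, no gene and no member was called under any of the other pseudocounts, filters, quantile normalization, variance prior, probe set summaries or the replicate block, and leaving out each array gave 0 to 1649 called genes and 0 to 4 called members, the upper values without transgenic replicate 3. The member probe sets called numbered 0 of 14 with all arrays and 6 without that array, an alternative chosen after seeing the data. Estimated array weights gave 5504 called genes and 6 called members, 4 higher (Fosl1, Jun, Maff and Ier3) and 2 lower (Fosl2 and Jund). That fit gave weights of 5.24 and 4.65 to transgenic replicate 1 and non-transgenic replicate 2 but 0.349 and 0.177 to transgenic replicates 2 and 3, so it rested mostly on 1 array per group. Fos, Fosb, Fosl1, Fosl2, Jun, Jund, Maff, Egr1 and Ier3 kept their direction under every alternative that gave a value, Fosl1 ranging from 1.86 to 4.0. Fosb ranged from -0.611 to -0.0779, the latter with quantile normalization (SE 0.375, limma adjusted p = 0.944). With each array left out in turn Junb ranged from -0.113 (without non-transgenic replicate 3) to 0.524 (without transgenic replicate 2), and it reversed to -0.0107 without transgenic replicate 1; the cause was not tested. With the 75th percentile filter Fosb, Fosl1 and Junb gave no value. The replicate block called 0 genes, and same-numbered cultures did not deviate together (correlations of 0.0421, -0.278 and -0.0336). No pairing by number was seen, but 3 cultures per group are too few to exclude it. Low signal limits Fosb and the dim second probe set of Fosl1.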
